A study of Rattus norvegicus with 12 samples.

Results

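Systolic overload hearts were compared with control hearts, gene by gene, over the 4 arrays of each group, which are 8 of the 12 arrays in the series. All hearts came from Sprague-Dawley rats, an outbred laboratory stock. The 4 systolic overload hearts were labelled as under phasic systolic overload, meaning load added while the ventricle contracts. The 4 control hearts carried no added load, and the remaining 4 hearts of the series, under phasic diastolic overload, entered the fit and serve below for a second comparison. Total heart RNA was measured on Illumina bead arrays, where each probe reports 1 transcript as a fluorescence intensity. The device, the length of loading, the chamber sampled, the animals' age and sex, and whether each array stands for a separate animal cannot be read from the sources used here. The p-values therefore cover the spread among these arrays, part of which may be technical.

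A heart that ejects against a raised pressure is known to thicken its muscle cells. The classical accompaniment, described mostly in rodents, is an early burst of immediate early transcription factors, followed by return of fetal genes such as natriuretic peptides, skeletal alpha-actin and beta-myosin. Faster protein synthesis also loads the endoplasmic reticulum, where secreted and membrane proteins fold. When unfolded proteins build up there, the sensors ATF6, IRE1 and PERK switch on chaperones, degradation factors and the transcription factors ATF4, XBP1 and CHOP, a program called the unfolded protein response.

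Between 9489 and 9739 probes were detected on the systolic overload arrays, and between 9649 and 9869 on the control arrays. Arrays correlated with each other at 0.984 to 0.992. The first principal component of all 12 arrays, with 23.1% of the variance, placed diastolic overload 1, control 1 and control 2 at one end. Systolic overload 3 lay nearer to them than the other systolic overload hearts. Control 3 lay at the other end, with diastolic overload 3, systolic overload 1 and systolic overload 2. Ventricular muscle markers summed to between 247152 and 257002 intensity units under systolic overload and to between 224437 and 257105 in control, with 17 of 18 tested and Tbx20 detected on no array. Values per heart below are normalized log2 intensities, listed for hearts 1 to 4 of each group, and differences are systolic overload minus control on that log2 scale. No probe passed the test: with limma and Benjamini-Hochberg adjustment, 0 of 10234 probes had an adjusted p under 0.05 (0% called, smallest adjusted p 0.52), also under each alternative setting run. Without adjustment, 593 probes (5.79%) had p under 0.05, of which 54.8% were higher under systolic overload. That split became 4.01% higher when arrays were scaled to a common median in place of quantile normalization, a setting that also moved the median difference of all tested probes to −0.17. Over the 7348 named genes, 5.36% had an unadjusted p under 0.05 (2.79% higher, 2.57% lower), in 3.29% the 4 systolic overload hearts did not overlap the 4 controls (1.73% higher, 1.57% lower), and 50.3% had a higher mean. Since no gene passed, what follows describes measured values and their spread.

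**Figure D1:**
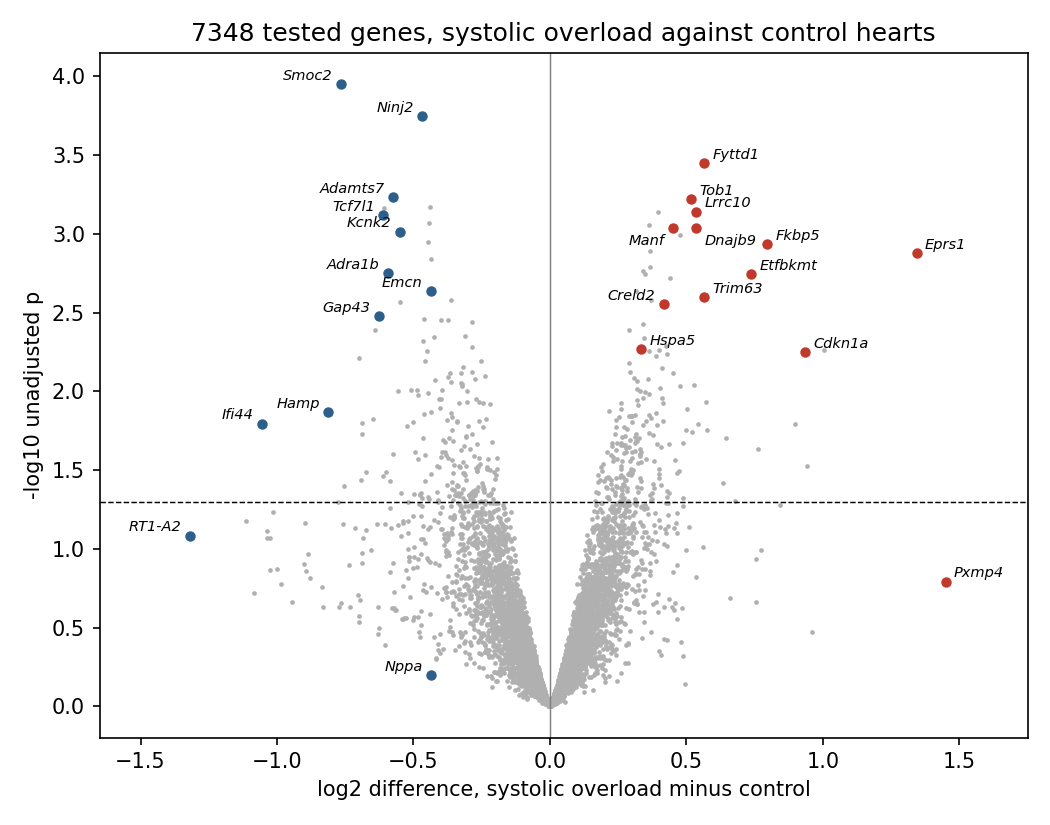
Each point is 1 of 7348 tested genes, with the log2 difference (systolic overload minus control) on the horizontal axis and −log10 of limma's unadjusted p on the vertical axis. The dashed line marks the unadjusted threshold, labelled genes are coloured by sign, and 0 genes passed after adjustment.

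Genes of the unfolded protein response had higher means under systolic overload, by small amounts spread over many members. Of 40 listed genes, 36 had a probe and 30 were tested. Of these 30, 26 had a higher mean than control, with a median log2 difference of 0.13 against 0.00 over all tested genes. Under median scaling, 23 of the 30 stayed above the median of all probes, but only 11 stayed above 0 and the list's median was −0.07. An unadjusted p under 0.05 was reached by 8 members, all higher (2.79% of all genes were). That count ranged from 0 to 10 over the alternative settings. It was 5 without systolic overload 4, without control 1 or without control 3. The 4 systolic overload hearts lay above the 4 control hearts without overlap for 5 members, as they did for 1.73% of all genes. These were Dnajb9, Manf, Creld2, Hspa5 and Calr, the last by a gap of 0.0030. The median deviation of the list from the mean of all 12 hearts was 0.10, 0.06, 0.04 and 0.20 in the systolic overload hearts, against −0.10, −0.03, 0.01 and −0.05 in the controls. The groups therefore did not overlap on this median, by a gap of 0.03 between systolic overload 3 and control 3.

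Of the 7 tested members of this list whose promoter holds the endoplasmic reticulum stress element, 6 are shown first, because this is the sequence through which ATF6 and XBP1 are known to act on chaperone genes. The search took CCAAT followed, after any 9 bases, by CCACG, on both strands, in windows from 250 bases before to 50 after each annotated start (RefSeq, rat assembly GRCr8). Capitals mark the match, and each line reads 5′ to 3′ along the gene's own strand.
Hspa5 (chr3:38452967-38452997, plus strand): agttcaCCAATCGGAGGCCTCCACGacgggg
Creld2 (chr7:121789233-121789263, plus strand): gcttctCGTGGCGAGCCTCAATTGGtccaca
Hsp90b1 (chr7:23012445-23012475, minus strand): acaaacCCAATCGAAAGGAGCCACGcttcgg
Xbp1 (chr14:84604552-84604582, plus strand): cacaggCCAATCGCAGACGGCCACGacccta
Calr (chr19:40213129-40213159, plus strand): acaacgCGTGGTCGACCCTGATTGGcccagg
Dnajc3 (chr15:102432528-102432558, plus strand): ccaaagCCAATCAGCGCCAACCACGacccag
The Creld2 and Calr matches lie in the opposite orientation, and the window of Hsp90b1 holds 2 matches, of which 1 is printed. The element occurred in 22 of 33469 windows (0.0657%) and in 7 of the 26 tested members that had a window (26.9%). No window held both this element and the interferon motif described further down. All 7 genes with the element lay higher in mean under systolic overload (median difference 0.15), and 16 of the 19 without it did, (median 0.13). A match of letters is a description of these windows and not evidence of binding. The 250 bases before the Hspa5 start (chr3:38452766-38453015, plus strand) show where the element lies in the gene most often used as a readout of this program.
Hspa5: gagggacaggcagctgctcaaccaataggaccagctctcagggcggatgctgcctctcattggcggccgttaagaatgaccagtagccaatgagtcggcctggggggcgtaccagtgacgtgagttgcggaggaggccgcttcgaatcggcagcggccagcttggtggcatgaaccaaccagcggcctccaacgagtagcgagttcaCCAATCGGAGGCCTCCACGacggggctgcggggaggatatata

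Among the chaperones, Hspa5 (BiP), the most abundant folding chaperone of the organelle, stood at 13.75, 13.73, 13.82 and 13.77 in the systolic overload hearts, against 13.41, 13.46, 13.52 and 13.35 in the controls. The lowest systolic overload heart lay above the highest control by 0.21, and the difference was 0.33 ± 0.10 (SE), or 1.26-fold. Dnajb9 (ERdj4), which hands misfolded clients to BiP, had 9.58, 9.53, 9.68 and 9.89 in the systolic overload hearts, against 9.16, 9.11, 9.24 and 9.02 in the controls. Systolic overload 4 was the highest heart, none of the 4 overlapped the controls, and the difference was 0.54 ± 0.13 (95% interval 0.27 to 0.81). Hsp90b1 (Grp94), a chaperone for selected secreted and membrane proteins, had 11.16, 10.98, 10.98 and 11.20 in the systolic overload hearts, against 11.00, 10.81, 10.95 and 10.60 in the controls. Control 1 lay among the systolic overload hearts here, and the difference was 0.24 ± 0.11. The lectin chaperones differed little: Calr (calreticulin) differed by 0.09 ± 0.07 and Canx (calnexin) by 0.08 ± 0.09, both of them changing sign under median scaling. So did Dnajc3, an inhibitor of PERK and co-chaperone of BiP, at 0.08 ± 0.10. The disulfide isomerases Pdia4 (0.17 ± 0.15, negative under median scaling) and Pdia6 (−0.03 ± 0.10) and the co-chaperone Dnajb11 (−0.05 ± 0.10) differed by little more than their errors or less. Hyou1, another chaperone of the organelle, had no array of 12 on which it was detected (0 of 12) and stayed outside the test.

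Secreted proteins of the response showed the same ordering of groups. Manf, a protein retained in the organelle and released under stress, had 10.17, 10.12, 10.09 and 10.04 in the systolic overload hearts, against 9.49, 9.85, 9.77 and 9.49 in the controls. The 4 systolic overload hearts spanned 0.13 and lay above every control, with a difference of 0.45 ± 0.11, or 1.37-fold. Creld2, a secreted disulfide isomerase known as an early stress marker, had 7.72, 7.52, 7.62 and 7.81 in the systolic overload hearts, against 7.31, 7.31, 7.34 and 7.04 in the controls. Its groups did not overlap, and the difference of 0.42 ± 0.11 rested in part on control 4, the lowest heart, without which it was 0.35. Sdf2l1, a partner of BiP, differed by 0.35 ± 0.16 with overlapping groups.

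Herpud1, which helps move proteins out of the organelle for degradation, had 12.22, 12.04, 12.18 and 12.56 in the systolic overload hearts, against 11.79, 11.55, 11.99 and 12.19 in the controls. Only control 4 reached the range of the systolic overload hearts, and the difference was 0.37 ± 0.17. Of the transcription factors, Atf4, the effector of PERK, had 11.66, 11.76, 11.77 and 12.00 in the systolic overload hearts, against 11.41, 11.73, 11.54 and 11.61 in the controls, a difference of 0.23 ± 0.11 in which control 2 overlapped. Xbp1, the effector of IRE1, differed by 0.15 ± 0.11, and Ddit3 (CHOP), the proapoptotic factor, by 0.14 ± 0.21, with the sign of both turned under median scaling. The array reports total Xbp1 and not its spliced form. Atf5 differed by 0.25 ± 0.14, while Eif2ak3, which encodes PERK itself, had a difference of −0.09 ± 0.17 and Wfs1, a membrane protein of the organelle, of −0.17 ± 0.12. Trib3, a pseudokinase, and Chac1, which breaks down glutathione, are targets of ATF4. Their means were higher by 0.43 ± 0.19 for Trib3 and by 0.40 ± 0.17 for Chac1, which was detected on 2 of 4 control arrays. Groups overlapped for both genes, and targets of ATF4 were not tested as a set. None of these members passed the adjusted test, with limma's smallest Benjamini-Hochberg adjusted p on the list 0.52. For Hspa5, all 4 systolic overload hearts also lay above the diastolic overload hearts, which ranged from 13.10 to 13.59, and systolic overload minus diastolic overload was 0.43 (unadjusted p = 0.00084 in limma). The same contrast was 0.46 for Dnajb9 (unadjusted p = 0.0027) and 0.26 for Calr (unadjusted p = 0.0035). Its values for the other members are not given, so these genes do not stand for the list. Over the 30 tested members its median was 0.12, against 0.01 over all tested genes. In that contrast 5.85% of all genes had an unadjusted p under 0.05, and 0 genes passed after adjustment (smallest adjusted p 0.4994).

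**Figure D2:**
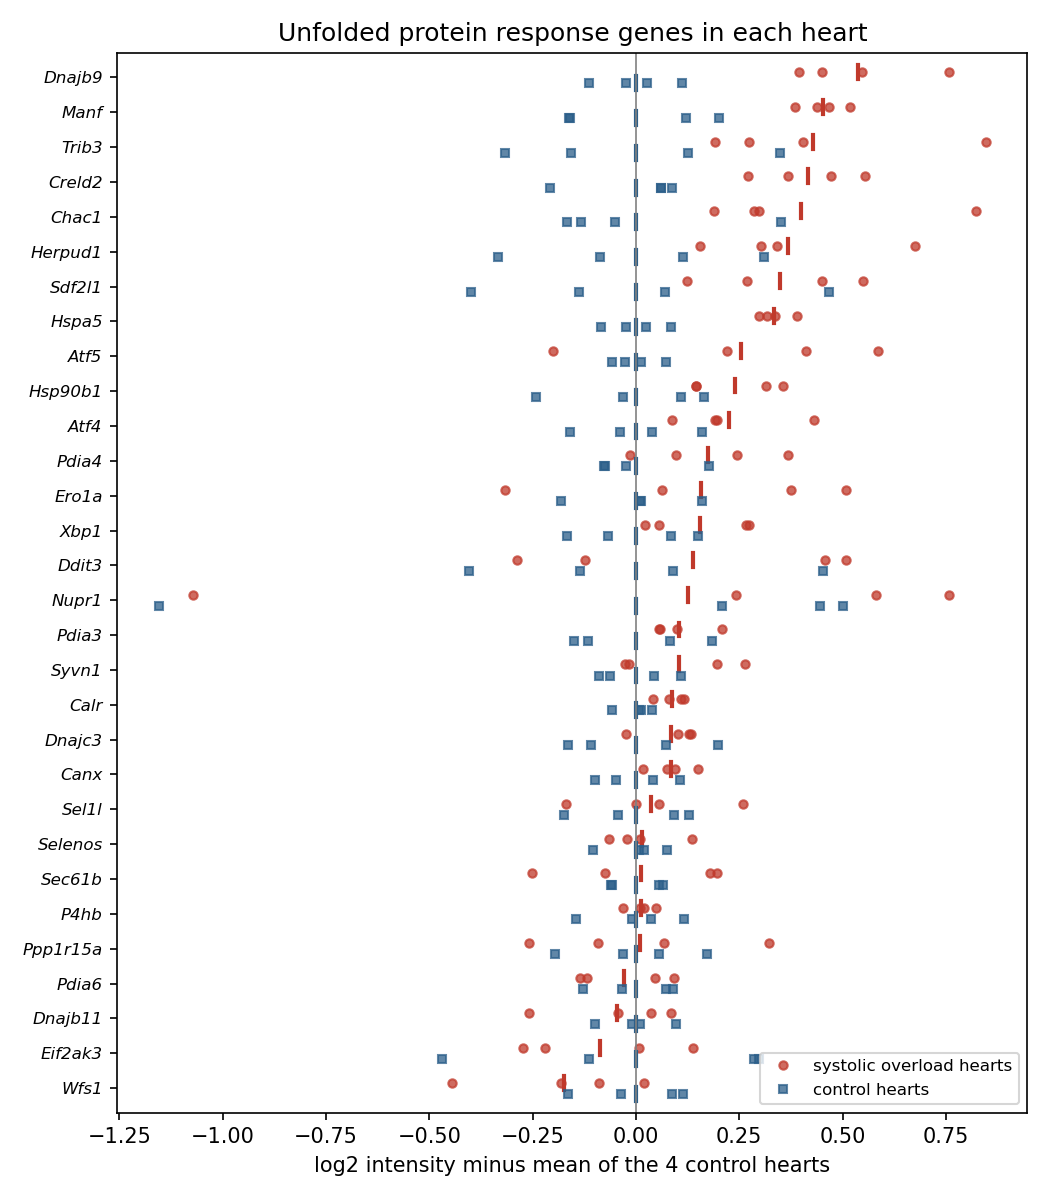
Each row is 1 of the 30 tested unfolded protein response genes, and the horizontal axis is log2 intensity minus the mean of the 4 control hearts. Circles are systolic overload hearts, squares control hearts and bars group means. Of the 30, 26 have a higher mean under systolic overload (11 under median scaling). Hearts of the 2 groups are separate for 5, all higher (as for 1.73% of all genes), with a gap of 0.0030 for Calr.

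Among the 15 genes with the smallest p and a higher mean, several carry known functions in growth control and muscle. Tob1, an antiproliferative protein, had 9.88, 9.94, 9.84 and 9.87 in the systolic overload hearts, against 9.11, 9.53, 9.53 and 9.29 in the controls. The systolic overload hearts lay within 0.10 of each other and above all controls, a difference of 0.52 ± 0.11 or 1.43-fold. Lrrc10, a leucine-rich repeat protein of the cardiac Z-disc region, had 10.17, 10.64, 10.28 and 10.51 in the systolic overload hearts, against 9.67, 9.98, 9.80 and 10.01 in the controls, again without overlap, and its difference was 0.54 ± 0.12. Slc3a2 (CD98hc), the heavy chain of amino acid transporters, had 10.79, 10.62, 10.84 and 10.58 in the systolic overload hearts, against 10.22, 10.47, 10.07 and 10.16 in the controls, with a difference of 0.48 ± 0.11. Systolic overload 4 exceeded control 2 by 0.11, the smallest gap. Ptpn11 (SHP2), a phosphatase needed for growth factor signalling to ERK, differed by 0.35 ± 0.09, and Ctsl, a lysosomal protease, by 0.37 ± 0.09, both without overlap. G3bp2, an RNA-binding protein of stress granules, differed by 0.37 ± 0.09 and Spata33, a mitochondrial protein described mainly in sperm, by 0.36 ± 0.08. Slc66a1, a lysosomal transporter of cationic amino acids, differed by 0.40 ± 0.09 and was detected on 2 of 4 control arrays. Etfbkmt, a mitochondrial lysine methyltransferase, had a larger difference of 0.74 ± 0.19, without overlap between the groups and with 0.65 against diastolic overload (unadjusted p = 0.0042 in limma).

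Dim probes were also among these 15. Fyttd1, an mRNA export adaptor, was detected on 4 of 4 systolic overload arrays and 0 of 4 control arrays, which makes its mean at least 1.19-fold higher under systolic overload. Or4p19, an olfactory receptor gene, was detected on 3 of 4 systolic overload arrays and 0 of 4 control arrays, at least 1.05-fold higher. These bounds set the bright group's mean against the higher of each dim array's lowest detected signal and the probe's own value. They describe the means of these arrays and make no allowance for the spread between hearts. Eprs1, the glutamyl-prolyl tRNA synthetase, had 7.60, 7.78, 6.82 and 7.82 in the systolic overload hearts, against 5.55, 7.15, 6.19 and 5.78 in the controls. Its difference of 1.34 ± 0.33 was the second highest of all genes, yet control 2 overlapped systolic overload 3. The diastolic overload hearts stood at 7.14 to 7.94, near the systolic overload hearts, so that the 2 loaded groups differed by 0.03.

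On the lower side, Smoc2, a matricellular calcium-binding protein, had 8.03, 8.42, 8.09 and 7.94 in the systolic overload hearts, against 9.07, 8.75, 8.76 and 8.97 in the controls. All systolic overload hearts lay below all controls, with 0.33 between systolic overload 2 and control 2, and the difference was −0.77 ± 0.14, the smallest p of the named genes (unadjusted p = 0.000112, limma adjusted p = 0.52). Its range in diastolic overload hearts, 7.74 to 8.30, was like that under systolic overload. Adamts7, a secreted metalloproteinase, had 6.21, 6.43, 6.15 and 6.19 in the systolic overload hearts, against 6.66, 6.89, 6.85 and 6.89 in the controls, without overlap, a difference of −0.57 ± 0.13. Fkbp10, a collagen-folding isomerase, had 8.11, 8.08, 7.93 and 8.00 in the systolic overload hearts, against 8.50, 8.31, 8.36 and 8.68 in the controls. It was lower than in control by 0.44 ± 0.11 and than in diastolic overload by 0.45 (unadjusted p = 0.0011).

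A receptor and a channel were also among the genes with a small p and a lower mean. Adra1b, the alpha-1B adrenergic receptor that couples noradrenaline to hypertrophic signalling, had 11.48, 11.38, 11.32 and 11.43 in the systolic overload hearts, against 11.56, 12.21, 12.18 and 12.03 in the controls. The systolic overload hearts spanned 0.17, and control 1 lay 0.08 above the highest of them and well below the other controls. The difference was −0.59 ± 0.15, or 1.51-fold lower. Kcnk2 (TREK-1), a potassium channel opened by membrane stretch, had 8.69, 9.02, 9.02 and 8.90 in the systolic overload hearts, against 9.08, 9.64, 9.70 and 9.41 in the controls. Control 1 was again the lowest control, 0.06 above the highest systolic overload hearts, and the difference was −0.55 ± 0.13. Emcn (endomucin), a sialomucin of capillary and venous endothelium, had 9.93, 10.07, 10.03 and 10.16 in the systolic overload hearts, against 10.62, 10.20, 10.44 and 10.68 in the controls, a difference of −0.44 ± 0.12 with 0.04 between the groups. Tcf7l1, a mostly repressive partner of beta-catenin in Wnt signalling, differed by −0.61 ± 0.14, and Fzd5, a Wnt receptor, by −0.44 ± 0.10, the second detected on 1 of 4 systolic overload arrays. Gap43, a growth-cone protein of nerve fibres, differed by −0.63 ± 0.17 and Ninj2, an adhesion protein, by −0.47 ± 0.09. Ninj2 also had a lower mean than in diastolic overload, by 0.33 (unadjusted p = 0.0026). Besides Fzd5, dim probes among the 15 genes with the smallest p and a lower mean included Nudt16l1 (−0.61) and Spg7 (−0.55), detected on 1 of 4 systolic overload arrays. Csnk2a2 (−0.45) was detected on 2 of 4 and Nccrp1 on 0 of 4, which makes the mean of Nccrp1 in these arrays at least 1.18-fold lower, by the same kind of bound.

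**Figure D3:**
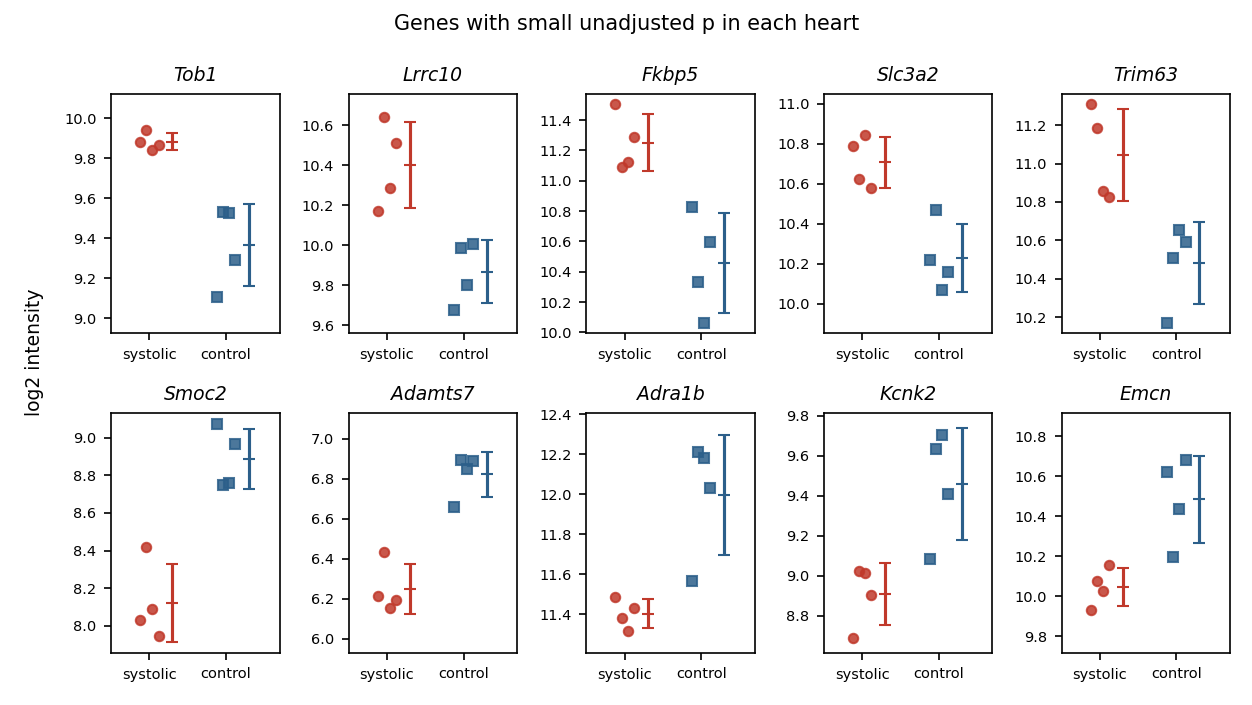
Log2 intensity in each systolic overload heart (circles, left) and control heart (squares, right) for 10 genes named in the text, with the mean and SD of each group beside the points. For each of the 10 genes, the 4 systolic overload hearts lie on one side of the 4 controls, as for 3.29% of all genes. The 10 were picked from genes with a small unadjusted p in this same comparison, so their separation follows from that choice. The vertical range differs between panels.

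The classical load genes did not separate the groups. Of 18 tested load and fetal program genes, 8 had a higher mean, and the median difference was −0.08 (0.06 without control 1). An unadjusted p under 0.05 was reached by 0 of the 18, against 5.36% of all genes. Groups were apart for 0, against 3.29% of all genes. In a list of 18, counts of 0 are near those shares. Nppa (atrial natriuretic peptide) had 12.89, 10.46, 11.71 and 12.89 in the systolic overload hearts, against 14.22, 12.56, 11.02 and 11.90 in the controls. Both groups spread over more than 2 log2 units, and the difference of −0.44 ± 0.89 became 0.17 without control 1 and 0.07 without systolic overload 2. Of 12 tested markers of atrial and conduction cells, 8 had a lower mean and 4 a higher one, their intensities summed to 2714 to 10794 under systolic overload and 6608 to 23327 in control, and Mybphl and Kcna5 were detected on no array. Hcn4, the pacemaker channel, had 4.76, 4.65, 6.13 and 6.16 in the systolic overload hearts, against 7.48, 7.08, 4.75 and 6.50 in the controls, and Gja5, connexin 40 of atria and conduction fibres, had 5.33, 5.42, 6.18 and 5.62 in the systolic overload hearts, against 6.85, 6.16, 5.45 and 5.94 in the controls. The Hcn4 values of systolic overload 1, systolic overload 2 and control 3 lay below those of probes not detected on these arrays. These 3 values stand for background and not for a level. Nppa, Hcn4 and Gja5 put the control hearts in the same order, with control 1 highest and control 3 lowest. The order differed under systolic overload, where systolic overload 1 was tied highest for Nppa and lowest for Gja5. In bulk RNA, fewer cells of a type and less RNA per cell cannot be told apart, and the part of atrial tissue in the Nppa values was not tested.

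Nppb (brain natriuretic peptide) had 14.51, 14.53, 14.56 and 14.51 in the systolic overload hearts, against 14.66, 14.54, 14.35 and 14.25 in the controls, a difference of 0.08 ± 0.10. Acta1, skeletal alpha-actin, had 13.66, 14.09, 13.67 and 13.98 in the systolic overload hearts, against 13.67, 13.87, 13.08 and 13.56 in the controls, a difference of 0.30 ± 0.20 with overlap. Ankrd1, a stretch-responsive cofactor of the Z-disc and nucleus, differed by 0.08 ± 0.07. The cardiac myosin heavy chains differed by 0.04 ± 0.08 for Myh6, the adult alpha form, and by −0.06 ± 0.07 for Myh7, the fetal beta form, whose sign turned under median scaling. These probes stood near the top of the arrays' range, and compression of differences there was not tested. The highest mean of any probe was 14.94, and Ankrd1 ranked 6, Myh7 36, Myh6 45 and Nppb 64 in mean intensity. Ccn2 (connective tissue growth factor) had a difference of −0.50 ± 0.29, with the lowest heart, systolic overload 3, at 11.67. Without that heart the difference was −0.21. Its systolic overload hearts were also below diastolic overload, by 0.75 (unadjusted p = 0.024). Rcan1, a calcineurin target, differed by 0.16 ± 0.12, and Spp1 (osteopontin), which spanned 5.49 to 10.67 in control hearts alone, by 0.50 ± 1.33.

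**Figure D4:**
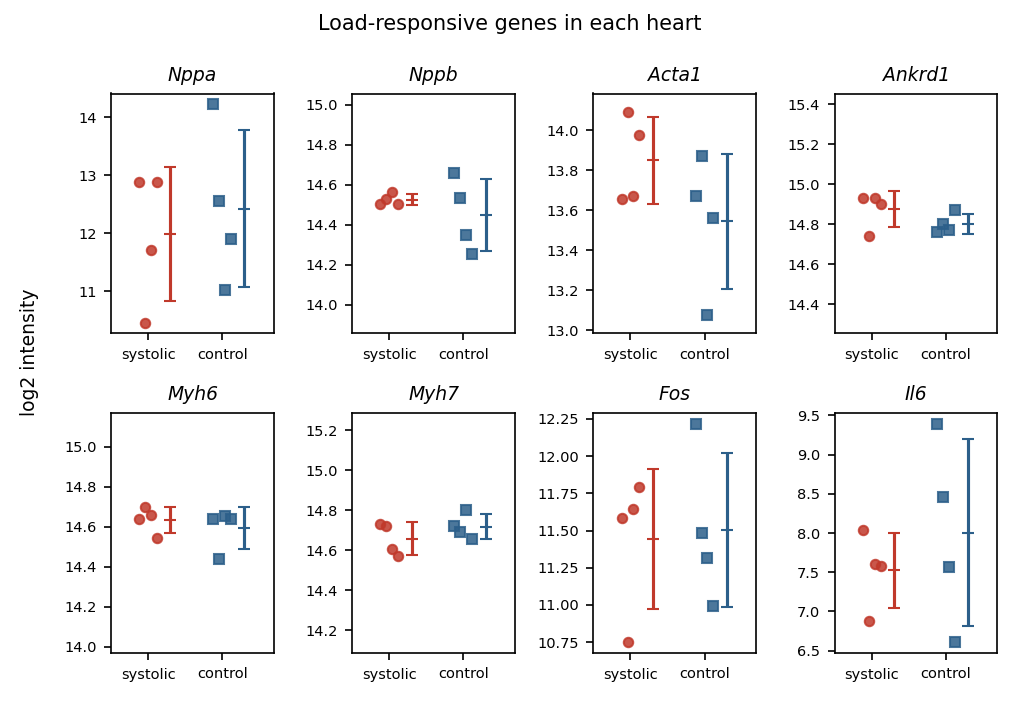
Log2 intensity of 8 load-responsive genes in each systolic overload heart (circles, left) and control heart (squares, right), with the mean and SD of each group. The groups overlap for all 8 genes, and Nppa spans 10.46 to 12.89 under systolic overload and 11.02 to 14.22 in control. The vertical range differs between panels.

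Immediate early genes likewise overlapped in all members but 1, with 9 of 21 tested members higher and a median of −0.06. An unadjusted p under 0.05 was reached by 1 member and groups were apart for 1. These counts are near the shares of all genes, 5.36% and 3.29%. Fos had 11.59, 10.75, 11.65 and 11.79 in the systolic overload hearts, against 12.22, 11.48, 11.31 and 10.99 in the controls, a difference of −0.06 ± 0.30, and Egr1 one of −0.08 ± 0.21. Both became positive when control 1 or systolic overload 2 was left out. Atf3 differed by 0.01 ± 0.13 (−0.16 under median scaling) and Myc by −0.48 ± 0.22. Jun was the one member with an unadjusted p under 0.05, at 9.96, 9.98, 9.69 and 10.06 in the systolic overload hearts, against 9.37, 9.38, 9.77 and 9.84 in the controls, a difference of 0.34 ± 0.14 in which control 3 and control 4 overlapped the lowest systolic overload heart. Klf6 was the one member whose groups were apart, with 10.43, 10.58, 10.55 and 10.39 in the systolic overload hearts, against 11.28, 10.89, 10.60 and 10.61 in the controls and a difference of −0.36 ± 0.18. The cytokine Il6 had 8.04, 6.88, 7.61 and 7.58 in the systolic overload hearts, against 9.39, 8.46, 7.56 and 6.61 in the controls, so that control 1 and control 2 were the highest hearts, and the chemokine Ccl2 differed by −0.05 ± 0.20. Ptgs2 (COX-2), the inducible prostaglandin synthase, had one of the 5 lowest differences of all genes, with 9.23, 8.19, 9.42 and 9.41 in the systolic overload hearts, against 11.41, 10.76, 8.69 and 9.86 in the controls. Control 1 and control 2 were the bright hearts again, control 3 lay within the systolic overload range, and the difference of −1.11 ± 0.56 was −0.70 without control 1.

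Muscle structure and atrophy genes gave smaller sets. Of 21 Z-disc and stretch-sensing genes, 14 had a higher mean (median 0.06). Lrrc10, already named for its small p, and Trim63 had groups apart, both higher, as had 1.73% of all genes. Trim63 (MuRF1), the ubiquitin ligase that targets sarcomere proteins, had 11.31, 11.19, 10.86 and 10.83 in the systolic overload hearts, against 10.17, 10.51, 10.65 and 10.59 in the controls. Its systolic overload hearts lay above all controls by 0.17 or more, a difference of 0.56 ± 0.15, and above diastolic overload by 0.46 (unadjusted p = 0.0097). Fbxo32 (atrogin-1), the other muscle-specific ligase of atrophy, had 6.44, 6.32, 6.55 and 6.61 in the systolic overload hearts, against 6.19, 6.14, 5.93 and 6.55 in the controls, a difference of 0.28 ± 0.13 in which control 4 overlapped. Against diastolic overload it was higher by 0.59 (unadjusted p = 0.00075). Myot (myotilin), an actin cross-linker of the Z-disc, differed by 0.46 ± 0.18, and Csrp3 (muscle LIM protein) by 0.19 ± 0.10. The list of ubiquitin ligase and autophagy genes, which also holds Trim63, had 19 of 29 members higher with a median of 0.07. Its heart medians of 0.03 to 0.05 under systolic overload lay above those of −0.06 to 0.02 in control. Sarcomere proteins had a median of 0.03 (8 of 14 higher) and proteasome subunits of 0.03 (19 of 29 higher).

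Genes known to respond to glucocorticoids held 2 of the larger separations, in a list of 18 tested genes with 12 higher and a median of 0.19. The lowest member stood at −0.90. Under median scaling the list's median was 0.0005, with 9 of the 18 above 0 and 13 above the median of all probes. Groups were apart for 2 of the 18, both higher, as for 1.73% of all genes. Fkbp5, a co-chaperone that dampens the glucocorticoid receptor and is itself a sensitive target, had 11.50, 11.09, 11.12 and 11.29 in the systolic overload hearts, against 10.83, 10.33, 10.06 and 10.59 in the controls. Control 1 was the highest control and lay 0.26 below the lowest systolic overload heart, and the difference was 0.80 ± 0.19, or 1.74-fold. Cdkn1a (p21), an inhibitor of the cell cycle, had 8.68, 8.17, 8.13 and 8.13 in the systolic overload hearts, against 7.81, 7.29, 7.39 and 6.87 in the controls. Systolic overload 1 was the highest heart, no heart overlapped, and the difference was 0.94 ± 0.28, or 1.91-fold. Against diastolic overload it was 1.04 (unadjusted p = 0.0028). Zbtb16 (PLZF), a transcription factor, had 7.91, 7.63, 7.64 and 6.97 in the systolic overload hearts, against 7.27, 6.46, 6.88 and 6.48 in the controls, a difference of 0.76 ± 0.30 with systolic overload 4 inside the control range. Per1, a clock gene on the same list, pointed the other way at −0.52 ± 0.27. Of 9 circadian clock genes, 2 had a higher mean and the median was −0.22 (−0.08 without control 4), with Nr1d1 (REV-ERB alpha) at −0.66 ± 0.37. Among cell cycle and antiproliferative genes 15 of 21 were higher (median 0.10), and the heart medians of 0.0016 to 0.09 under systolic overload lay above those of −0.14 to −0.03 in control. Ccnd1 (cyclin D1) on that list differed by −0.38 ± 0.21. Of all 47 lists, 3 had heart medians without overlap, all 3 higher under systolic overload: unfolded protein response, ubiquitin ligase and autophagy, and cell cycle and antiproliferative genes. Among single genes, 3.29% had groups without overlap. Under median scaling the medians of these 3 lists were −0.07, −0.08 and −0.10 in that order, against −0.17 over all tested probes. The sources used here give no hour at which hearts were taken.

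Genes of stress defence and metabolism showed few separate groups. Of 25 NRF2 targets, 18 had a higher mean (median 0.05). Nqo1, a quinone reductase, had 10.90, 11.02, 11.05 and 10.94 in the systolic overload hearts, against 10.51, 10.56, 10.47 and 10.91 in the controls, with control 4 just above the lowest systolic overload heart and a difference of 0.36 ± 0.11. Gclc, the catalytic subunit for glutathione synthesis, differed by 0.30 ± 0.12. The heat shock list, which holds the mitochondrial Hspa9, Hspd1 and Hspe1 beside cytosolic genes, had 14 of 22 higher and 8 lower (median 0.04, lowest −0.48). The 3 with the smallest p were all higher, with overlapping groups: Hspa4 (0.38 ± 0.14), Chordc1 (0.31 ± 0.11) and Hspa2 (0.47 ± 0.19). Hspa1b, the inducible HSP70, was detected on 0 of 12 arrays. Energy genes centred on 0, with medians of 0.00 for 55 oxidative phosphorylation subunits, 0.02 for 42 fatty acid oxidation genes and 0.02 for 19 citric acid cycle enzymes. Cs (citrate synthase) had 9.75, 9.81, 9.93 and 9.86 in the systolic overload hearts, against 9.27, 9.58, 9.67 and 9.75 in the controls, apart by 0.0050, with a difference of 0.27 ± 0.12. Glycolytic enzymes went both ways, with 8 of 20 higher and 12 lower (median −0.03). An unadjusted p under 0.05 was reached by 2 higher and 3 lower members, against 2.79% and 2.57% of all genes. Pkm (pyruvate kinase M) had 10.06, 10.05, 10.12 and 9.90 in the systolic overload hearts, against 9.50, 9.76, 9.69 and 9.70 in the controls, a difference of 0.37 ± 0.10 without overlap, and Pgam2 one of 0.26 ± 0.10. Eno1 (enolase 1) was lower at 8.02, 8.17, 7.73 and 8.01 in the systolic overload hearts, against 8.88, 8.68, 8.32 and 8.10 in the controls, a difference of −0.51 ± 0.17 with control 4 inside the systolic overload range. Insr, the insulin receptor, differed by 0.50 ± 0.18, and Hexim1, an inhibitor of transcription elongation, by 0.94 ± 0.38 (0.47 without control 1).

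Of 16 tested iron and heme genes, 9 had a higher mean (median 0.06), and 2 had groups apart, both lower, as did 1.57% of all genes. Hamp (hepcidin), the hormone that closes the iron exporter ferroportin, had 10.25, 9.67, 9.83 and 10.13 in the systolic overload hearts, against 10.90, 10.77, 10.75 and 10.70 in the controls. The systolic overload hearts lay 0.45 or more below the controls, with a difference of −0.81 ± 0.28 (1.76-fold lower), while diastolic overload hearts spread from 9.51 to 11.30 across both. Hmox2, the constitutive heme oxygenase, had 7.95, 7.94, 7.99 and 7.87 in the systolic overload hearts, against 8.15, 8.22, 8.22 and 8.09 in the controls, a difference of −0.23 ± 0.08. Ftl1, the ferritin light chain, differed by 0.33 ± 0.13. Kcnh2 (ERG), the channel of the rapid delayed rectifier current, differed by −0.36 ± 0.12 and Irx4, a ventricular transcription factor, by −0.32 ± 0.13.

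Matrix and vessel genes tended to the lower side. Of 38 extracellular matrix genes, 26 had a lower mean, with a median of −0.10. There was 1 unadjusted p under 0.05 in each direction, against 2.79% of all genes higher and 2.57% lower. Smoc2 was the lower one, and Efemp1 (fibulin 3) was the higher, at 7.16, 5.76, 7.41 and 7.21 in the systolic overload hearts, against 6.35, 5.74, 6.01 and 6.74 in the controls, with systolic overload 2 inside the control range. Col1a2, a chain of type I collagen, had 12.00, 12.40, 12.39 and 11.89 in the systolic overload hearts, against 12.74, 12.47, 12.18 and 12.73 in the controls, a difference of −0.36 ± 0.19 with overlap. Fibroblast markers summed to 38596 to 43683 under systolic overload and 37461 to 46430 in control (16 of 18 tested, Thy1 detected on no array), and 10 of the 16 had a lower mean. In the protease list, Adamts4 differed by −0.33 ± 0.15 and Timp1, an inhibitor of matrix metalloproteinases, by −0.09 ± 0.52. Endothelial markers had 12 of 18 lower with a median of −0.10, which became 0.03 without control 1 and −0.25 without control 2. Their sums were 10890 to 13374 under systolic overload and 9351 to 17702 in control, and Cdh5, Robo4 and S1pr1 were detected on no array. Their part in the Emcn value was not tested. Lyve1, a hyaluronan receptor of lymphatic endothelium and some macrophages, stood higher at 8.17, 8.06, 8.16 and 8.07 in the systolic overload hearts, against 7.99, 7.19, 7.82 and 7.33 in the controls, a difference of 0.53 ± 0.17 without overlap. Of the 5 lymphatic markers tested, Lyve1 among them, 3 had a lower mean. Macrophage markers summed to 5559 to 6452 under systolic overload and 4787 to 6112 in control, and 10 of 15 tested had a higher mean, with a median of 0.22 (0.20 above all probes under median scaling). Their part in the Lyve1 value was not tested. Of the growth factors, Hbegf differed by −0.37 ± 0.35 and Tgfb1 by −0.21 ± 0.24, and both had lower means than in diastolic overload, Hbegf by 0.87 (unadjusted p = 0.028) and Tgfb1 by 0.56 (unadjusted p = 0.037).

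Interferon-stimulated genes had lower means under systolic overload, but their spread lay between hearts rather than between groups. Of 43 tested, 38 had a lower mean, with a median of −0.31. Under median scaling 6 of the 43 stood above the median of all probes, against 5 in the reported fit. The heart medians were −0.51, −0.15, 0.27 and −0.29 under systolic overload and 0.39, 0.71, −0.37 and −0.13 in control. Control 1 and control 2 were therefore high, and systolic overload 3 was higher than the other 2 controls. The groups were apart for 0 of the 43, against 3.29% of all genes. Without control 2 the median was −0.15, and without control 3 it was −0.52. Ifi44, an antiviral cytoplasmic protein, had 7.63, 8.06, 7.41 and 7.76 in the systolic overload hearts, against 9.52, 9.62, 7.67 and 8.28 in the controls, a difference of −1.06 ± 0.38 and the one member with an unadjusted p under 0.05. Of all genes, 2.57% had such a p and a lower mean. The count on this list was 7 without control 3 or without systolic overload 3, and 0 without control 1 or without control 2. Ifi44l, its paralog, had 5.11, 5.73, 6.25 and 5.29 in the systolic overload hearts, against 7.20, 7.67, 5.63 and 5.96 in the controls, a difference of −1.02 ± 0.49. Its values of 5.11 and 5.29 were near background, where Nccrp1, detected on no systolic overload array, averaged 5.07. The size of the Ifi44l difference is therefore uncertain. Psmb8, an immunoproteasome subunit, had 10.84, 10.04, 11.20 and 10.49 in the systolic overload hearts, against 11.42, 11.53, 10.50 and 11.27 in the controls, a difference of −0.54 ± 0.27. Psme1, an activator of that proteasome, differed by −0.10 ± 0.09.

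The promoters of these 3 genes with the smallest p on the list hold the core of the interferon-stimulated response element, searched as GAAA followed, after any 2 bases, by a second GAAA, on both strands of the same RefSeq windows. Capitals again mark the printed match, here in the opposite orientation in each gene. The windows of Ifi44 and Ifi44l hold 2 matches each, of which 1 is printed.
Ifi44 (chr2:243303851-243303872, minus strand): actgagTTTCAGTTTCatttcc
Ifi44l (chr2:243328626-243328647, plus strand): cttggcTTTCTTTTTCtcatcc
Psmb8 (chr20:4657020-4657041, minus strand): tgtggcTTTCGCTTTCacttcc
The motif was found in 1312 of 33469 windows (3.92%) and in 24 of the 34 tested members with a window (70.6%). Members with it had a median difference of −0.38 and members without it of −0.24.

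Of 20 antigen presentation genes, 15 had a lower mean, with a median of −0.20, and Tap1, Tap2, Psmb8 and Psmb9 are also on the interferon list. The heart medians were −0.24, −0.11, 0.19 and −0.28 under systolic overload and 0.28, 0.33, −0.24 and −0.05 in control, so the groups overlapped. RT1-N3, a class I gene, had 6.15, 6.06, 7.03 and 6.07 in the systolic overload hearts, against 7.53, 7.26, 6.60 and 6.69 in the controls, a difference of −0.69 ± 0.30 with systolic overload 3 inside the control range. RT1-A2, another class I gene, had the lowest difference of all genes at −1.32 ± 0.70. Its values were 10.51, 6.66, 10.10 and 7.18 in the systolic overload hearts, against 10.10, 10.20, 9.33 and 10.09 in the controls, so that 2 systolic overload hearts were near the controls and 2 were over 2 log2 units below. Class I genes vary between individual rats of an outbred stock, and close relatives of RT1-A2 may share its probe, which makes its value uncertain. Il15, a cytokine that sustains lymphocytes, had 6.86, 6.98, 7.69 and 6.97 in the systolic overload hearts, against 8.26, 8.42, 7.54 and 7.30 in the controls, a difference of −0.75 ± 0.33. Lymphocyte markers summed to 2717 to 4927 under systolic overload and 3190 to 5007 in control, with Cd8b, Cd5, Ms4a1 and Il7r detected on no array. The neutrophil chemokine Cxcl2 stood higher, at 11.81, 11.72, 12.04 and 12.21 in the systolic overload hearts, against 11.44, 11.77, 11.46 and 11.52 in the controls, a difference of 0.40 ± 0.16.

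**Figure D5:**
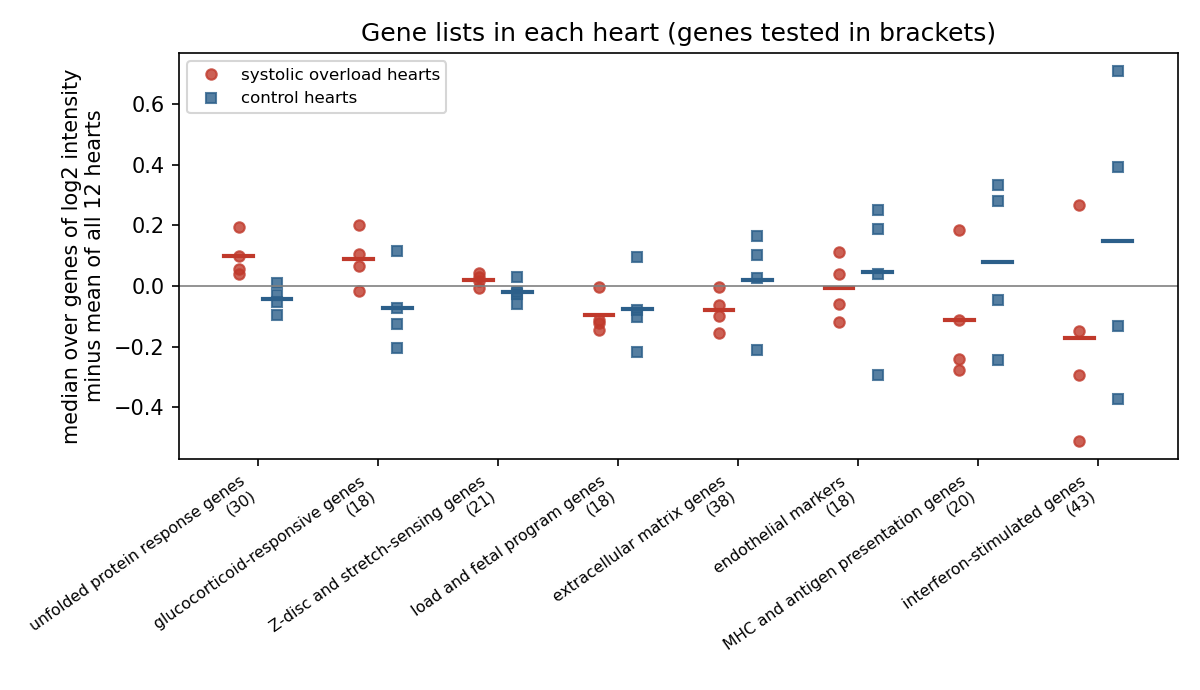
For 8 gene lists, each symbol is the median over the list's genes of log2 intensity minus the mean of all 12 hearts, in 1 systolic overload heart (circle) or 1 control heart (square), and bars are group means. Of the 8 lists, the unfolded protein response list alone has separate groups (with 23 of its 30 genes above the median of all probes under median scaling), as have 3 of all 47 lists, the other two not plotted here. For interferon-stimulated genes the spread within a group exceeds the distance between group means.

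The highest and lowest differences in mean came with wide spread between hearts. Pxmp4, a peroxisomal membrane protein, had 9.02, 9.97, 9.93 and 9.10 in the systolic overload hearts, against 5.32, 10.01, 9.95 and 6.93 in the controls. Control 1 and control 4 were low while the other controls matched the systolic overload hearts, so the difference of 1.45 ± 0.97 was 0.54 without control 1. Sctr, the secretin receptor, had 9.65, 8.39, 8.35 and 9.02 in the systolic overload hearts, against 7.41, 7.66, 7.81 and 8.52 in the controls, a difference of 1.00 ± 0.30 in which control 4 exceeded the 2 lowest systolic overload hearts. Mrpl17, a mitochondrial ribosomal protein, differed by 0.96 ± 0.96, and each group spanned over 3 log2 units. On the lower side, Cds1, an enzyme of phospholipid synthesis, differed by −1.08 ± 0.78 and Sbsn (suprabasin), a secreted epithelial protein, by −1.04 ± 0.54, each with overlapping groups. For 83.7% of the 10234 probes the 95% interval stayed under 1.5-fold, higher or lower.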

How the data were processed

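The deposited non-normalized table holds 1 intensity per probe and array, not normalized per the file headers, for 22523 probes on 12 arrays. It also holds a deposited detection p-value per probe and array, which compares the probe with negative controls. Per the labels' protocols, total RNA was copied into biotin-labelled cRNA. The software behind the tables, the slide and the scan are not given in the sources used here.

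From these intensities, neqc (offset 16; limma 3.58.1, R 4.3.3) removed background and quantile normalized the arrays. A probe was kept if 4 or more of the 12 arrays had it at detection p under 0.05, which left 10234. The linear model had a mean for each of the 3 groups (lmFit, eBayes), systolic overload minus control and minus diastolic overload were tested, and p-values were adjusted by Benjamini-Hochberg over all kept probes. The scripts were checked on simulated data. Platform annotation gave 1 symbol to 13793 probes and none to 8730. Each of 7348 genes takes the values of its brightest tested probe. Where a gene had 2 or more tested probes (117 genes), 68 had the same sign on every probe.

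The text names 15 genes with the smallest p in each direction, the 5 highest and 5 lowest differences, a set of load and stress genes, and the 3 smallest p and the highest mean of a list. One of these genes and 1 promoter match are not reported here. The comparison, the 47 gene lists and this rule were chosen with earlier results of these data known. Replicate numbers did not pair the samples: same-numbered systolic overload and control arrays had deviations correlated at −0.01, 0.00, −0.27 and 0.10. Alternatives changed the scaling, the background method, the detection filter, the variance model, the arrays fitted and the replicate block, or left out each heart in turn. The normalized table that was deposited served as one of them. The number of hearts limits the precision, with a median standard error of 0.13 in log2.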

Additional observations from a re-analysis of the deposited data

Results flagged for a closer look

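In 16 of 324 groups of 4 hearts, 1 heart stood far from the other 3 by Dixon's test, for values named in the report and the list medians. Chance gives about 5% of groups, so these are single hearts to look at and not a pattern. Values are log2 intensities, and no cause was tested.

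Systolic overload 2 was the most frequent, and it was the low heart in 5 genes. Ctsl was 12.92 there against 13.16 to 13.18 in the other systolic overload hearts, Ankrd1 14.74 against 14.90 to 14.93, Ptgs2 8.19 against 9.23 to 9.42, and Efemp1 5.76 against 7.16 to 7.41. Psme1, the proteasome activator, was 14.04 there against 14.20 to 14.22. Oxidative phosphorylation subunits had a median deviation of 0.048 in that heart, against −0.02 to −0.01. Systolic overload 3 was the high heart for Il15 (7.69 against 6.86 to 6.98), RT1-N3 (7.03 against 6.06 to 6.15) and Nccrp1 (5.24 against 5.00 to 5.02, none of the 4 arrays above background). Systolic overload 1 was high for Cdkn1a, at 8.68 against 8.13 to 8.17, and systolic overload 4 for Insr, at 6.43 against 6.03 to 6.09.

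Among controls, control 2 was high for Nccrp1 (5.74 against 5.41 to 5.44) and low for Myh6 (14.44 against 14.64 to 14.65). Control 4 was low for Creld2, at 7.04 against 7.31 to 7.34, and high for the median of matrix protease and inhibitor genes, at 0.15 against −0.02 to 0.00. RT1-A2 was 9.33 in control 3 against 10.09 to 10.20 in the other controls.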

How the results depend on the processing

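No probe passed limma's adjusted test under any of 9 alternative settings or with any of 8 hearts left out, 0 in each, also with the replicate number as a block (replicate block: 0 probes, smallest adjusted p 0.76, and 628 probes with an unadjusted p under 0.05). Same-numbered hearts do not deviate together, and 1 of 4 correlated best with its own number, so this block is not a pairing. The count at an unadjusted p under 0.05, 593 in the reported fit, was 1198 under median scaling and 1254 of 22523 probes with no detection filter, and 495 to 731 with 1 heart left out. Under median scaling the median of all tested probes was −0.17, and 41 of 47 list medians kept their side of it. Of 115 named genes, 95 kept their sign throughout and none passed. Median scaling turned Myh7 (0.020), Atf3 (−0.16), Ddit3 (−0.042), Xbp1 (−0.066), Calr (−0.076), Dnajc3 (−0.14), Canx (−0.15) and Pdia4 (−0.030), and array weights turned Atf3 (−0.014). The cause was not tested. With 1 heart left out, Nppa ranged from −0.90 to 0.17, Myh6 from −0.0088 to 0.073, Fos from −0.23 to 0.18, Egr1 from −0.20 to 0.034, Atf3 from −0.11 to 0.12, Ccl2 from −0.20 to 0.086, Eif2ak3 from −0.24 to 0.012, Pdia6 from −0.072 to 0.0073, Dnajb11 from −0.089 to 0.026, Spp1 from −0.073 to 1.66, Timp1 from −0.39 to 0.22, Hbegf from −0.65 to 0.037 and Tgfb1 from −0.37 to 0.049. Unfolded protein response genes with a higher mean numbered 11 to 26 over settings and 23 to 26 with 1 heart left out, and interferon-stimulated genes with a lower mean 32 to 41 and 32 to 39. Of 47 list medians, 40 moved by more than the spread between hearts under a setting, 39 of them under median scaling, and 11 with 1 heart left out. Dim probes give only a bound on fold size.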
